A study of Mus musculus with 2 samples.

Results

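Imprinted genes are expressed from only 1 of the parental alleles, and many of them set the size of the fetus or the placenta. As background, genes expressed from the paternal allele, such as Igf2, which encodes an insulin-like growth factor, and Dlk1, a membrane protein related to the Notch ligands, often favour growth, and genes expressed from the maternal allele, such as H19, a non-coding RNA, Igf2r, the receptor that takes up and degrades the Igf2 protein, and Cdkn1c, a cyclin-dependent kinase inhibitor, often restrain it. Most are high in fetal tissue and fall after birth. A fixed list of 36 genes named as imprinted was followed here across the immune and structural cells of the fetal mouse lung. The members were found by gene symbol, and all 36 were rows of a matrix of 32285 genes. Membership rests on gene names and not on measured values. Which parental allele was read, and whether only 1 was read in these cells, was not measured.

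The study asked whether a glucocorticoid given to pregnant mice alters type 2 innate lymphoid cells (ILC2s) in the fetal lung. Wild-type mothers, 9 weeks old, drank 1.3 µg/ml dexamethasone (DEX), a synthetic glucocorticoid, or PBS without it from day 12 of gestation, and fetal lungs were taken on day 18. Lungs were pooled within a litter, 8 and 9 fetuses in the litters DEX-1 and DEX-2 and 5 and 8 in PBS-1 and PBS-2, so the litter was the replicate and there were 2 litters per treatment. The labels tie each litter to a mother of its own. The study's text is not uniform on the number of dams, and if litters shared a mother the p-values would measure only the spread between these pools. Viable cells with CD45 and ST2 and without lineage markers were sorted, each litter was marked with a hashtag antibody, and all 4 litters were sequenced as 1 single-cell 5′ library.

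After hashtag calling 7268 cells were assigned to 1 litter, 1737 to 1890 per litter, with median counts of 7458 to 8325 unique molecular identifiers (UMIs, 1 per captured RNA molecule). Clustering was run without the 36 members and without the lists of related genes compared with them below. Other marker genes could take part in it, so the cluster names are not independent of the clustering. It gave 18 clusters, of which 13 could be named from marker lists and held 6292 cells. They were 2722 mast-like cells (clusters 0, 4 and 8), 2050 ILC2-like cells (clusters 1, 2 and 3), 496 basophil-like cells, 199 B-like cells, 341 epithelial-like cells (clusters 5 and 16), 276 endothelial-like cells (clusters 10 and 11) and 208 mesenchymal-like cells. The last 3 are structural cells that the CD45 gate should have removed. In the mast-like clusters the basophil list was the runner-up, and in cluster 8 the mean share of cells with a marker was 48.2% for the mast list and 45.2% for the basophil list. The proteases Mcpt8 and Prss34, which define basophils, stood at 57.4 ± 8.93 and 399 ± 65.3 CPM (a gene's UMIs scaled to the total UMIs of the class in a litter) in mast-like cells and at 2229 ± 790 and 4240 ± 1158 CPM in basophil-like cells (SD, n = 4 litters). Values of single litters are given in the order of their numbers. The mast protease Cma1 stood at 19297 ± 1810 CPM in mast-like cells and 586 ± 503 CPM in basophil-like cells. Summed over a class and a litter, 3 UMIs were worth 0.420 to 0.608 CPM in mast-like cells and 14.7 to 20.9 CPM in B-like cells, so that low members could be seen in the first and not in the second.

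Several members are host genes of microRNAs, short RNAs that pair with messenger RNAs mainly through their seed, bases 2 to 8 from the 5′ end. The assay reads the host transcripts and not the microRNAs, so the sequences are shown to say what these transcripts carry. They are RefSeq mature sequences of mouse build GRCm38.p6, written 5′ to 3′ with the seed in capitals. Both arms of the H19 and Igf2 hairpins are shown because these genes had their highest class in mast-like cells, both arms from Mest because it was the leading endothelial member, and 1 arm each from Meg3, Rian and Mirg because they follow Dlk1 on the same chromosome.
miR-675-5p (H19, exon, chr7:142577112-142577133, minus strand): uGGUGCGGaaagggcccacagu
miR-675-3p (H19, exon, chr7:142577078-142577099, minus strand): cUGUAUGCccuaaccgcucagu
miR-483-5p (Igf2, intron, chr7:142654968-142654989, minus strand): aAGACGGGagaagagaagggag
miR-483-3p (Igf2, intron, chr7:142654932-142654952, minus strand): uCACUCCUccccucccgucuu
miR-335-5p (Mest, intron, chr6:30741314-30741336, plus strand): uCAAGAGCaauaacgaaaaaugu
miR-335-3p (Mest, intron, chr6:30741354-30741375, plus strand): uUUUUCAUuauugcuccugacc
miR-770-5p (Meg3, exon, chr12:109563710-109563731, plus strand): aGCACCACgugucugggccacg
miR-370-3p (Rian, intron, chr12:109618305-109618326, plus strand): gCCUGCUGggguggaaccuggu
miR-134-5p (Mirg, exon, chr12:109734145-109734166, plus strand): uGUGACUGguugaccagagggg
In all, 45 mature microRNAs lay in 8 member genes, 26 of them in Mirg. A single seed was shared by mature sequences of different hairpins, both from Mirg:
miR-453: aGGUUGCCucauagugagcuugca
miR-496a-5p: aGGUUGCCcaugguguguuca
The other mature sequences shown each had a seed of their own among the 45.

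The members lay in clusters on the genome, 15 on chromosome 7, 7 on chromosome 6 and 5 on chromosome 12. H19 (chr7:142575529-142578143) and Igf2 (chr7:142650766-142666816) were 72.6 kb apart on the minus strand. On chromosome 12 the order on the plus strand was Dlk1 (109452823-109463336), Meg3 (109541001-109571726), Rian (109603940-109661716) and Mirg (109729764-109749460), with 77.7 kb between Dlk1 and Meg3. Mest (chr6:30723547-30748465, plus strand) overlapped the end of Copg2 (chr6:30747554-30896794, minus strand) by 912 bp, and Nnat lay on the opposite strand within the span of Blcap. Whether the counting used strand or introns is not given in the sources used here, so reads of overlapping pairs could not be assigned with certainty.

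Across the 7 named classes the members were mostly RNAs of structural cells. Of the 36, 31 had their highest mean level in a structural class, 14 in epithelial-like, 10 in mesenchymal-like and 7 in endothelial-like cells. The other 5 were highest in an immune class, 4 of them in mast-like cells (H19, Igf2, Nap1l5 and Impact) and Peg10 in basophil-like cells. No member was highest in ILC2-like or B-like cells. Among the 35 members with at least 20 UMIs, 30 were highest in a structural class (85.7%). Of all 16028 genes with at least 20 UMIs it was 48.9%. For 18 members the lowest litter of the top class lay above the highest litter of the next class. The share of all genes with such a gap was not counted, so this number only describes the members. Levels are compared within a gene and not between genes.

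**Figure D1:**
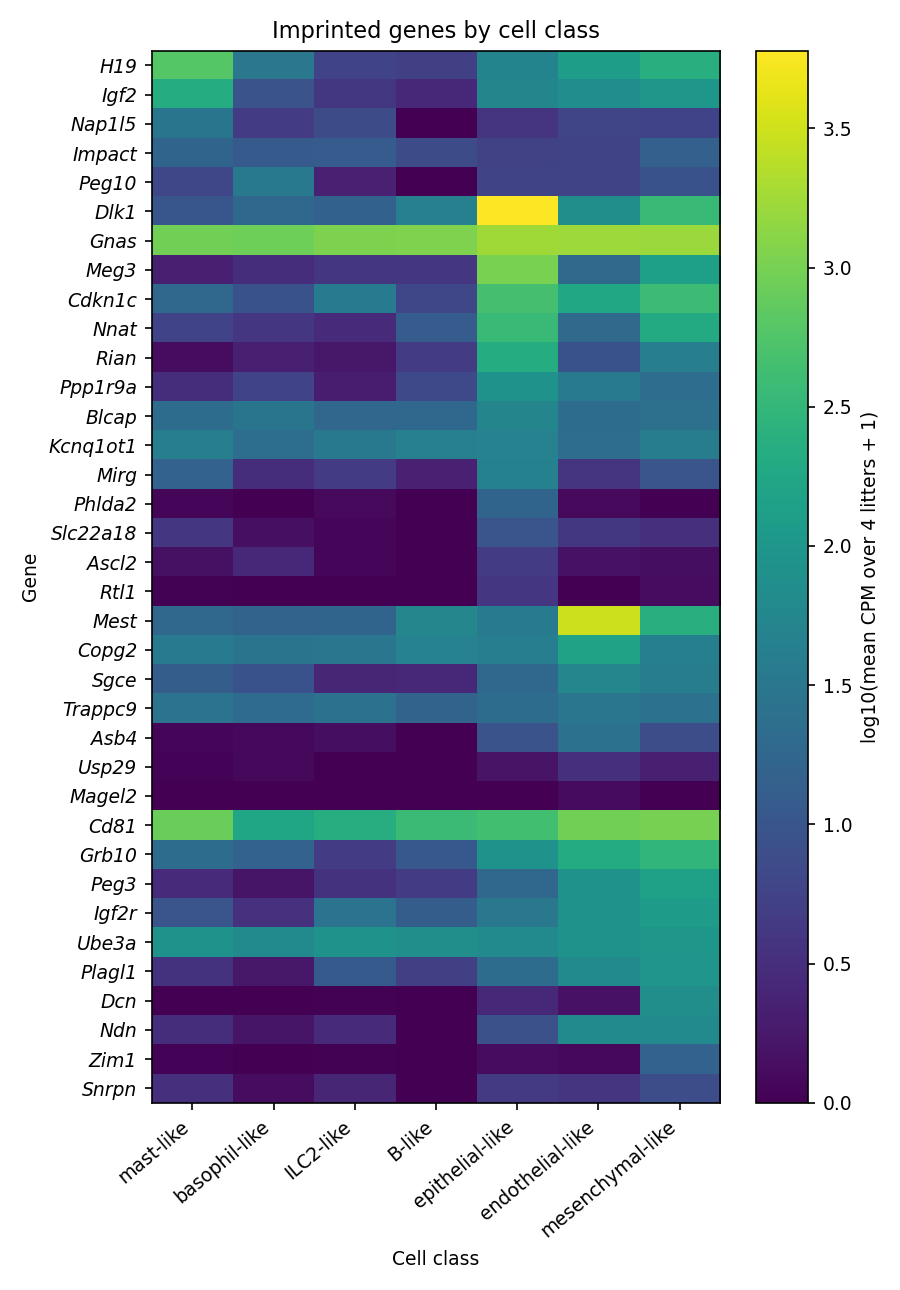
Mean level of each of the 36 members in the 7 named cell classes, as log10 of mean CPM over 4 litters plus 1 (colour, log scale). Rows are genes and columns are classes; most rows are brightest in the 3 structural columns, and H19 and Igf2 are brightest in mast-like cells.

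H19 and Igf2 lie next to each other and share enhancers. H19 stood at 506 and 708 CPM in the DEX litters and 525 and 646 CPM in the PBS litters in mast-like cells (mean 596 ± 97.2, SD, n = 4). The mesenchymal-like cells followed with 236 ± 47.8 CPM, 181 to 281 over the litters, and the endothelial-like cells with 129 ± 57.1 CPM. Every mast-like litter lay above every mesenchymal-like litter, while the mesenchymal-like and endothelial-like litters overlapped. Epithelial-like cells held 50.1 ± 14.97 CPM, basophil-like cells 31.0 ± 32.7 CPM and ILC2-like cells 4.83 ± 1.51 CPM. Igf2 had the same order of classes at the top. It stood at 165, 253, 201 and 237 CPM in the mast-like cells of DEX-1, DEX-2, PBS-1 and PBS-2 (mean 214 ± 39.3), at 100 ± 37.3 CPM in mesenchymal-like cells, at 69.5 ± 50.9 CPM in endothelial-like cells and at 3.13 ± 3.09 CPM in ILC2-like cells. The lowest mast-like litter lay above the highest mesenchymal-like litter for Igf2 too, while the mesenchymal-like, endothelial-like and epithelial-like litters overlapped and the basophil-like litters, at most 19.6 CPM, lay below all of them.

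Within the mast-like cells H19 and Igf2 were unequal between clusters. Cluster 4, whose leading genes included the mast proteases Mcpt1 and Mcpt2, held the most H19, 744, 1266, 1101 and 1033 CPM in DEX-1, DEX-2, PBS-1 and PBS-2 (mean 1036 ± 218). Cluster 0 held 411 ± 113 CPM and cluster 8 142 ± 95.04 CPM, and all 4 litters of cluster 4 were above all litters of both. Igf2 followed with 373 ± 130 CPM in cluster 4, 165 ± 54.5 in cluster 0 and 37.5 ± 4.89 in cluster 8, where clusters 4 and 0 were level in DEX-1 (194 and 198 CPM). Most genes of a mast cell maturation list placed the 3 clusters in another order. The granule proteases Cma1 and Mcpt4 fell from 32991 and 4388 CPM in cluster 0 to 15883 and 964 in cluster 4 and to 7084 and 440 in cluster 8. Mrgprb2, a receptor of connective tissue mast cells, stood at 192, 12.2 and 3.71 CPM, and Mki67, a gene of cycling cells, at 2.28, 5.85 and 147 CPM. The tryptase Tpsb2 and the protease Cpa3 also fell from cluster 0 to 4 to 8, while the tryptase Tpsab1 had the order of H19, with 846 ± 153, 973 ± 358 and 92.8 ± 59.0 CPM in clusters 0, 4 and 8 and overlap between the first pair. H19 was thus highest in the cluster with intermediate Cma1 and nearly no Mrgprb2, and not in the cycling cluster with the lowest proteases. By Cma1, Mcpt4 and Mrgprb2 cluster 4 lay below cluster 0 and above cluster 8. Whether this order is one of maturity or of different kinds of mast cell was not tested. Other members were spread differently, with Cd81, a tetraspanin of the cell surface, at 1257 ± 28.4, 774 ± 24.7 and 455 ± 27.4 CPM in clusters 0, 4 and 8, and Nap1l5 at 30.3, 28.5 and 25.0 CPM.

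**Figure D2:**
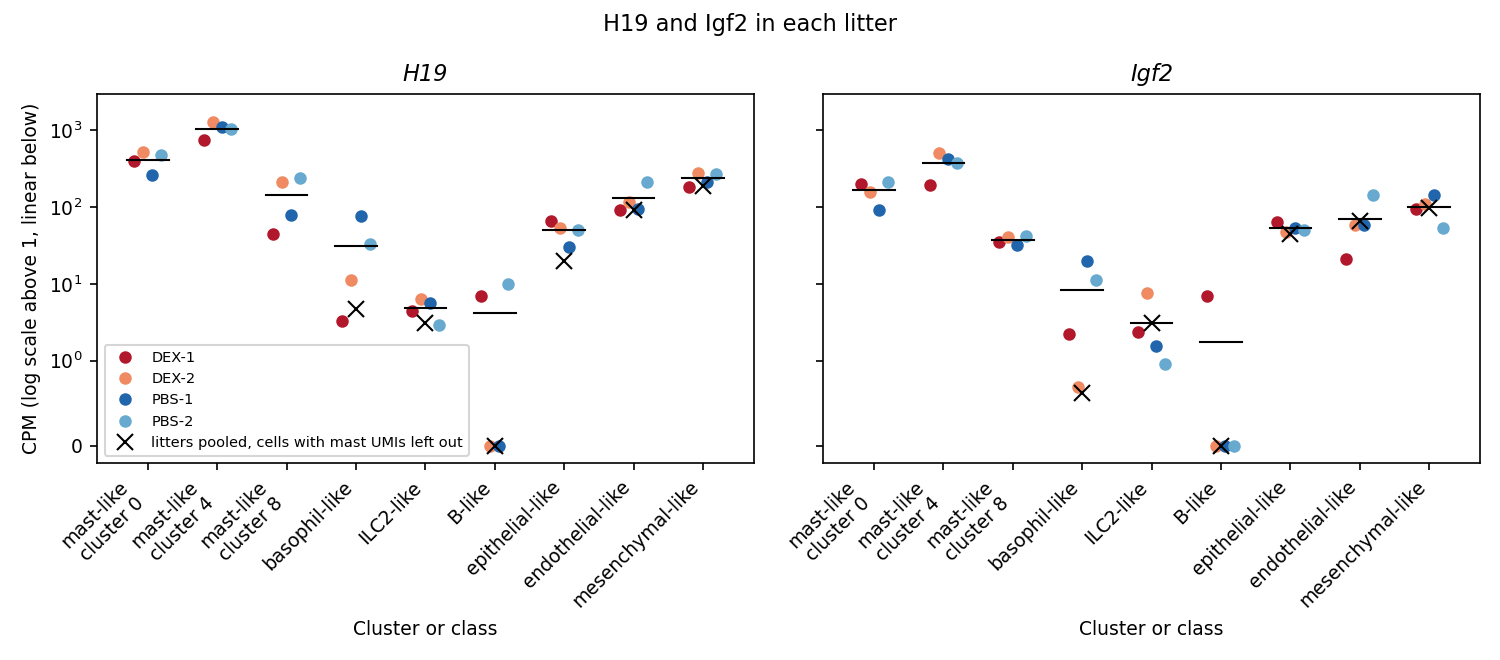
H19 and Igf2 in each litter (CPM, log axis, linear below 1), by mast-like cluster 0, 4 and 8 and by class. Dots are litters and the × is the level with the litters pooled and cells that held UMIs of mast proteases left out; the 4 litters of cluster 4 lie highest, at 744 to 1266 CPM for H19.

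H19 was carried by a minority of cells. In mast-like cells thinned to 2000 UMIs each (2477 cells; 245 shallower cells left out), 66.9% had no H19 UMI, 10.1% had 5 or more, the highest had 27, and the top 10% of cells by H19 held 65.0% of its UMIs. Igf2 was missing from 83.2% of them and its top 10% held 85.5%. Cd81, which is spread over nearly all mast cells, was missing from 19.7%, and its top 10% held 28.2%. The share of mast-like cells with an H19 UMI was 33.1% after thinning (95% interval 31.2 to 34.9%, Wilson, which covers counting error only) and 42.2% before it. In ILC2-like cells the share was 0.936% and 2.68%, and in B-like cells 0 of 185 thinned cells had one, where 3 counts would be 1.62% (the Wilson upper limit is 2.03%), and 1.01% before thinning. These shares describe cells with a UMI and not cells expressing H19. The median depth of the litters was 6636.5 to 7873 UMIs in ILC2-like and 6690 to 8120 UMIs in mast-like cells.

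Mast-like cells with H19 more often carried Igf2 too. After thinning, Igf2 was found in 41.3% of the 819 mast-like cells with H19 and in 4.76% of those without. The gap was there in each cluster, with 36.7% against 4.34% in cluster 0, 45.4% against 6.92% in cluster 4 and 25.8% against 2.04% in cluster 8. It was there in mesenchymal-like cells (45.2% against 6.45%) and in endothelial-like cells (42.1% against 7.48%). Among the latter it lay in cluster 10 (50% against 4.94%). The 16 cells of cluster 11 went the other way (20% against 63.6%), with 5 cells that had H19. Split by an H19 UMI, the 469 cells of cluster 4 with H19 had 821 ± 213 CPM of Igf2 and the 535 cells without it 57.0 ± 11.7 CPM, higher with H19 in 4 of 4 litters. In cluster 0 the values were 445 ± 121 CPM in 319 cells and 31.6 ± 6.24 CPM in 829 cells. In cluster 0 the cells with H19 also had less Mrgprb1 (19.9 against 164 CPM), less Mrgprb2 (110 against 206 CPM) and less Cma1 (26059 against 38789 CPM) in 4 of 4 litters. Tpsab1 was higher with H19 there, at 964 against 782 CPM, in 3 of 4 litters. In cluster 4 the cells with H19 had less Cma1 (13554 against 18003 CPM) and less Cpa3 (7308 against 9242 CPM). They had more Mcpt4 (1438.5 against 890 CPM) and more Tpsab1 (1317 against 938 CPM), all 4 of these in 4 of 4 litters. In cluster 8 the 31 cells with H19 went the other way for Cma1, with 12526 against 6840 CPM in the 294 others, and had more Tpsb2, a mast tryptase, with 4564 against 1181 CPM, both in 4 of 4 litters. The cells of cluster 8 with H19 also had more Mki67 (431 against 105 CPM) and more Top2a (320 against 161 CPM), in 4 of 4 litters. Birc5, another gene of cycling cells, was level at 201 and 207 CPM. These splits are descriptions of cells that share litters and a library, with no test.

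Mast proteases were read in every other class, so the H19 and Igf2 levels there are given with and without the cells that held them. All 10 mast markers were detected in epithelial-like, endothelial-like and mesenchymal-like cells and 9 of 10 in basophil-like cells, where Mrgprb1 was at 0, with summed levels of 46760 to 54768 CPM over the litters in mast-like, 5272 to 6571 in basophil-like, 2149 to 3384 in epithelial-like, 693 to 7744 in endothelial-like, 6624 to 15192 in mesenchymal-like and 405 to 536 in ILC2-like cells. Keeping only cells with under 1 UMI of Cma1, Mcpt4 and Tpsb2 per 10000 UMIs, H19 with the litters pooled went from 31.8 to 4.66 CPM in basophil-like cells (373 of 496 cells kept) and from 49.95 to 19.8 CPM in epithelial-like cells (284 of 341). It went from 129 to 91.8 CPM in endothelial-like cells (217 of 276) and from 232 to 186 CPM in mesenchymal-like cells (126 of 208). Igf2 moved less in the structural classes, from 52.8 to 44.4, from 70.4 to 64.7 and from 102 to 97.8 CPM in the same order, and fell from 8.17 to 0.622 CPM in basophil-like cells. The mesenchymal-like and endothelial-like levels thus largely stayed without those cells, and the basophil-like levels did not.

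Among endothelial-like cells H19 and Igf2 stood out in 16 cells. Cluster 11, led by the arterial genes Gja5, Gja4 and Cxcl12, held 255 of the 512 endothelial-like H19 UMIs. H19 in it was 217 and 739 CPM in the DEX litters and 653 and 581 CPM in the PBS litters (mean 547 ± 230), Igf2 323 ± 140 CPM and Cdkn1c 1128 ± 434 CPM. The litters gave 1, 2, 4 and 9 of these cells, so the values rest on few cells. With cells holding mast proteases left out, the 13 remaining cells had a pooled H19 level of 539 CPM, against 589 CPM in all 16.

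The genes of the chromosome 12 cluster were epithelial. Dlk1 stood at 6800 and 6815 CPM in the DEX litters and 5692 and 4713 CPM in the PBS litters in epithelial-like cells (mean 6005 ± 1009), at 365 ± 82.8 CPM in mesenchymal-like and 73.1 ± 55.5 CPM in endothelial-like cells. Every epithelial-like litter was far above every other litter. Cluster 5 held 49728 of the 52114 Dlk1 UMIs of the named classes. Its leading genes included the muscle genes Ttn and Myh6 beside Dlk1, Lyz1, Slc34a2, Sftpb and Meg3. ILC2-like and mast-like cells held 13.9 ± 2.40 and 9.40 ± 1.74 CPM. Meg3, a non-coding RNA expressed from the maternal allele, had 1182, 1118, 999 and 902 CPM in the epithelial-like cells of DEX-1, DEX-2, PBS-1 and PBS-2 (mean 1050 ± 125), 133 ± 28.2 CPM in mesenchymal-like, 2.96 CPM in ILC2-like and 1.14 CPM in mast-like cells. Rian, the next non-coding RNA of the cluster, had 214 ± 12.3 CPM in epithelial-like, 40.3 CPM in mesenchymal-like and 0.345 CPM in mast-like cells. Rtl1, a retrotransposon-derived gene of the placenta, was low everywhere, with 2.99 ± 1.42 CPM in epithelial-like cells and 27 UMIs in all.

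Within the epithelial-like cells thinned to 2000 UMIs (338 cells), 71.9% had 5 or more UMIs of Dlk1 and 15.1% had none. For Meg3 these shares were 18.3% and 29.9%. Meg3 was found in 78.0% of the 287 cells with Dlk1 and in 25.5% of the others, and in mesenchymal-like cells in 36.2% against 11.3%. Dlk1 and Meg3 were thus mostly read from the same cells.

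The low Dlk1 and Meg3 levels in immune cells were set against Sftpc, the surfactant gene of alveolar type 2 cells, which ILC2s and mast cells do not use and which was nevertheless read there at 247 and 221 CPM, against 113264 CPM in epithelial-like cells. Sftpc had a UMI in 39.3% of thinned ILC2-like cells. The ratio of a gene's mean CPM over litters to that of Sftpc was therefore compared between classes. Epithelial-like cells held 53.0 Dlk1 UMIs per 1000 Sftpc UMIs, 45.6 to 61.1 over the litters. ILC2-like cells held 56.3, mast-like cells 42.6, B-like cells 58.8, basophil-like cells 71.4 and endothelial-like cells 59.0, and mesenchymal-like cells held 265. The ILC2-like and B-like values lay within the range of the epithelial litters, the mast-like value below it and the basophil-like value above it. Single litters ranged from 33.6 to 50.1 in mast-like and from 45.2 to 91.7 in basophil-like cells. They ranged from 45.9 to 74.4 in ILC2-like and from 45.1 to 70.8 in B-like cells. Each of these ranges overlapped that of the epithelial litters. Endothelial-like litters ranged from 39.2 to 194.5, and Sftpc in them was 3981 CPM in PBS-2 and 264 to 371 CPM in the others. The share of cells with Dlk1 after thinning was 3.30% in ILC2-like, 1.82% in mast-like and 8.11% in B-like cells. Single ILC2-like cells of DEX-2 and PBS-2 had 11 Dlk1 UMIs each, and the source of these UMIs was not tested. For Meg3 the ratio was 9.27 in epithelial-like (8.61 to 10.6 over the litters), 12.0 in ILC2-like (7.31 to 16.3), 5.19 in mast-like and 96.6 in mesenchymal-like cells. Dlk1 and Meg3 were thus highest in the epithelial-like cells, where Sftpc marks alveolar type 2 cells. In ILC2-like cells the ratio of means to Sftpc lay inside the epithelial range for Dlk1 and above it for Meg3. Single ILC2-like litters reached past the upper end of that range for Dlk1 and lay on both sides of it for Meg3. Mirg, which hosts most of the microRNAs, stood apart from its neighbours. It was at 45.03 ± 8.10 CPM in epithelial-like cells, 17.8, 12.7, 12.0 and 14.3 CPM in the mast-like cells of DEX-1, DEX-2, PBS-1 and PBS-2 (mean 14.2 ± 2.57), 9.07 CPM in mesenchymal-like and 3.67 CPM in ILC2-like cells. Per 1000 Sftpc UMIs it was 0.398 in epithelial-like cells, 64.3 in mast-like cells (47.0 to 84.5 over the litters) and 14.8 in ILC2-like cells.

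**Figure D3:**
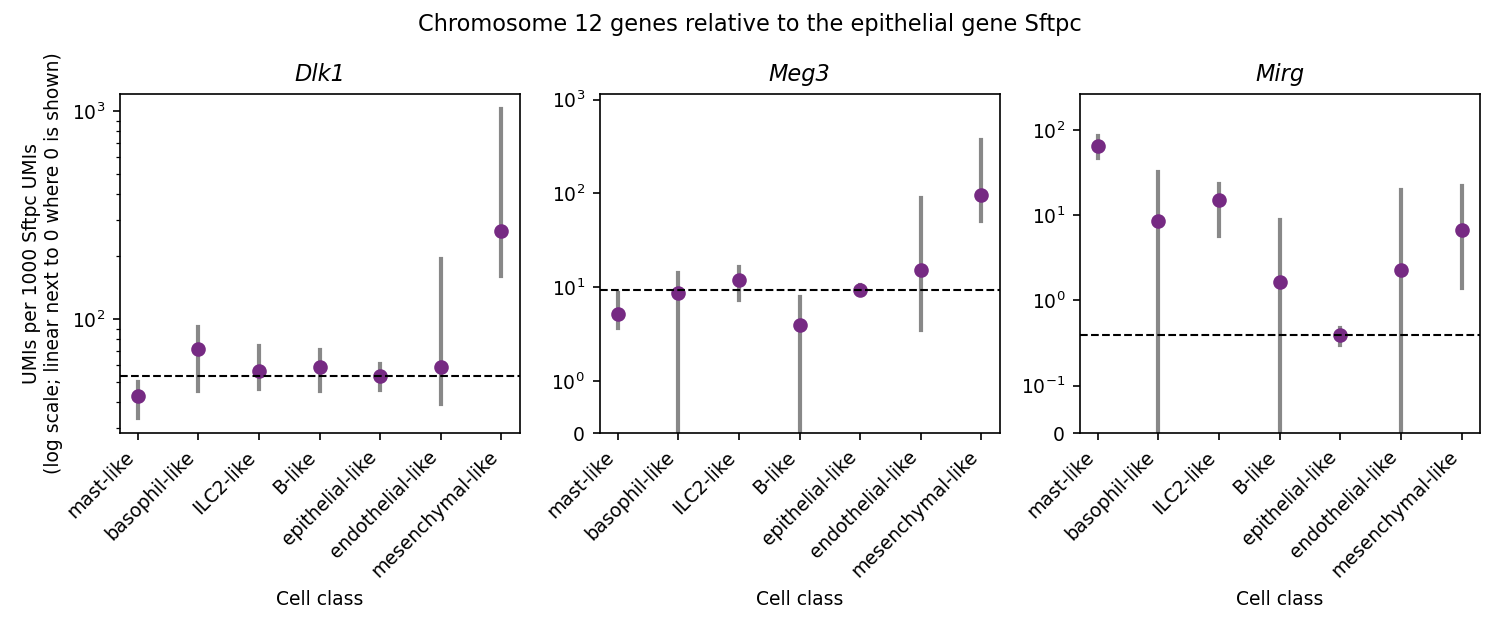
UMIs of Dlk1, Meg3 and Mirg per 1000 UMIs of Sftpc in each class (log scale, linear next to 0 where 0 is shown). Dots are ratios of the mean CPM over litters, bars the range over litters and the dashed line the epithelial-like value. Dlk1 in immune classes lies near the line at 53.0, and Mirg in mast-like cells lies far above its line at 0.398.

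Mest, which encodes a hydrolase and is expressed from the paternal allele, was the endothelial member. It stood at 3218 and 3133 CPM in the DEX litters and 3675 and 2159 CPM in the PBS litters in endothelial-like cells (mean 3046 ± 638), and at 239 ± 54.2 CPM in mesenchymal-like cells, the next class. No litters overlapped. After thinning 93.4% of endothelial-like cells had a Mest UMI and 63.0% had 5 or more. The level came from cluster 10, led by the capillary genes Plvap, Aplnr and Gpihbp1, with 3360 ± 526 CPM, and was 276 ± 74.3 CPM in cluster 11. Copg2, a coat protein gene whose end overlaps Mest, was highest in the same class, at 150 ± 30.7 CPM against 27.7 to 46.3 CPM elsewhere. The order of the litters was the same for both genes, with PBS-1 highest and PBS-2 lowest. Sgce, a sarcoglycan gene, and Asb4, a gene of blood vessels in the embryo, were also endothelial, at 55.1 ± 5.69 and 24.6 ± 1.36 CPM, and their litters lay above those of the next class. Usp29 reached 2.37 CPM there, and Magel2 was represented by 1 UMI in the whole data set.

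Mesenchymal-like cells led for Grb10, an adaptor that dampens insulin and growth factor signals, at 306 ± 122 CPM with endothelial-like cells at 212 ± 16.7, for the zinc finger gene Peg3 at 142 ± 46.7 and 83.2, for Igf2r at 123 ± 19.8 and 84.0, and for the zinc finger gene Plagl1 at 93.9 ± 19.6 and 62.6 CPM. For these 4 genes the litters of the top classes overlapped, so the order within the structural cells is not settled. Igf2r and Plagl1 were the members of this set with the clearest level in ILC2-like cells, at 26.2 ± 1.20 and 10.6 ± 4.96 CPM. Ndn, a gene of the Prader-Willi region, was level between mesenchymal-like and endothelial-like cells at 63.7 ± 28.6 and 62.6 ± 5.44 CPM. Dcn, the proteoglycan decorin, was mesenchymal at 17.2 to 152 CPM over the litters and had no UMI in mast-like, basophil-like or B-like cells. Zim1, at 14.5 ± 5.58 CPM, had no litter overlapping another class, and Snrpn, a splicing gene, reached 6.91 ± 2.96 CPM.

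Cdkn1c was spread unevenly within classes. Epithelial-like cells held 455 ± 78.6 CPM, mesenchymal-like cells 395 ± 11.4, endothelial-like cells 181 ± 55.4, ILC2-like cells 35.9 ± 13.1 and mast-like cells 18.1 CPM. Within the epithelial-like cells, the 42 cells of cluster 16, led by the ciliated cell genes Meig1 and Foxj1 and the club cell genes Scgb3a2 and Scgb1a1, held 1639 ± 506 CPM, and cluster 5 held 228 ± 21.8 CPM. Within the endothelial-like cells cluster 11 held 1128 ± 434 CPM and cluster 10 84.5 ± 15.2 CPM. Within the ILC2-like cells cluster 2, led by Ccl5, Gzma and Ifng, held 71.8 CPM, the cycling cluster 3 43.4 CPM and cluster 1, led by Calca and Il5, 9.72 CPM. Cluster 2 thus carries genes that are not typical of ILC2s beside 8 ILC2 markers. Phlda2, a growth-restraining gene next to Cdkn1c, was epithelial at 15.8 ± 4.14 CPM, with 0.249 CPM in the next class, and Slc22a18, a transporter gene between them, was at 8.81 ± 1.98 CPM. Nnat, a small membrane protein, was epithelial at 348 ± 24.6 CPM, and its mesenchymal litters ranged widely, at 352, 96.8, 273 and 85.9 CPM in DEX-1, DEX-2, PBS-1 and PBS-2. The remaining epithelial members were Ppp1r9a, a cytoskeletal gene, at 83.6 ± 8.01 CPM, and Ascl2, a transcription factor of the placenta, at 3.59 ± 1.41 CPM.

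Some members hardly distinguished the cells. For Gnas, which encodes a stimulatory G protein subunit, Ube3a, a ubiquitin ligase, Kcnq1ot1, an antisense RNA of the Kcnq1 domain, Trappc9, Blcap and Impact the highest class was under 5 times the lowest. Gnas ranged from 888 to 1744 CPM over classes, Ube3a from 61.6 to 101, Kcnq1ot1 from 21.4 to 45.7 and Trappc9 from 14.7 to 29.3. Blcap was 51.6 ± 10.3 CPM in epithelial-like cells and 16.8 to 28.4 CPM elsewhere. Cd81 was at 1006 ± 84.1, 956 ± 62.5 and 851 ± 33.8 CPM in mesenchymal-like, endothelial-like and mast-like cells and at 380, 224 and 166 CPM in B-like, ILC2-like and basophil-like cells. There were 5 members highest in immune cells. Beside H19 and Igf2, Nap1l5, a nucleosome assembly gene, had 24.8, 33.6, 24.9 and 32.1 CPM in the mast-like cells of DEX-1, DEX-2, PBS-1 and PBS-2, above the 6.50 CPM of ILC2-like cells. Impact, a translation regulator, was at 15.3 ± 1.53 CPM in mast-like and 13.2 CPM in mesenchymal-like cells, with overlapping litters. Peg10, a retrotransposon-derived gene, had 31.0, 43.8, 10.6 and 44.5 CPM in basophil-like cells, and PBS-1 overlapped the next class, which averaged 7.97 CPM.

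The 2 DEX litters were compared with the 2 PBS litters within each class by edgeR's quasi-likelihood test on UMIs summed per litter, fitted on all genes with Benjamini-Hochberg adjustment over all genes tested. Levels in this comparison are CPM after TMM scaling. No member passed an adjusted p of 0.05 in any of the 7 classes, and none did with DESeq2. With 2 litters against 2, an exact permutation test of a single value cannot go below p = 0.333. In bulk sums of a class, fewer cells expressing a gene and less RNA per cell cannot be told apart. The counts below at an unadjusted p under 0.05 are set against the share of all genes that met the same bound, and genes named beside H19, Igf2, Dlk1 and Meg3 were named after their values were seen.

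In ILC2-like cells 21 of 36 members passed the filter on low counts, 0 were called, and 2.27% of the 10637 genes tested were called. At an unadjusted p under 0.05 there were 6 members, all higher with DEX, where 12.3% of all genes met that bound. The median fold change of the 21 members was 0.13 on the log2 scale (14 higher, 7 lower), and that of all genes 0.00. H19 had 4.45 and 6.48 CPM in DEX-1 and DEX-2 and 5.57 and 2.91 CPM in PBS-1 and PBS-2, so the groups overlapped (log2 fold change 0.39 ± 0.38, SE, adjusted p = 0.763, edgeR). Igf2 had 2.33, 7.83, 1.52 and 0.969 CPM in DEX-1, DEX-2, PBS-1 and PBS-2, from 11, 29, 6 and 5 UMIs (1.97 ± 0.61, adjusted p = 0.144, edgeR). Both DEX litters were above both PBS litters, and the 29 UMIs of DEX-2 came from 11 cells, of which the highest pair had 7 each. Dlk1 had 11.4, 16.5, 12.1 and 15.9 CPM and overlapped (-0.04 ± 0.22, adjusted p = 0.970, edgeR). Meg3 had 1.70, 2.97, 4.30 and 2.91 CPM (-0.63 ± 0.44, adjusted p = 0.642, edgeR). Neither Dlk1 nor Meg3 separated the groups.

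The lowest adjusted p among the members was that of Plagl1, a zinc finger transcription factor known to restrain the cell cycle, with 11.2 and 17.5 CPM in DEX-1 and DEX-2 and 5.57 and 8.53 CPM in PBS-1 and PBS-2 (0.97 ± 0.28, adjusted p = 0.100, edgeR). Cdkn1c had 31.2, 55.6, 23.8 and 33.9 CPM (0.55 ± 0.23, adjusted p = 0.340), and Cd81 238, 242, 194 and 226 CPM (0.19 ± 0.09, adjusted p = 0.383). The Cdkn1c fold was 0.091 without DEX-2 and 0.93 without DEX-1, and cluster 2, where Cdkn1c was highest, gave 156 of 547 and 127 of 447 ILC2-like cells in the DEX litters and 104 of 486 and 116 of 570 in the PBS litters. The part of that difference in makeup was not tested. The groups overlapped for Cdkn1c and not for Plagl1 or Cd81. Mest had 16.1, 21.3, 13.9 and 11.1 CPM (0.58 ± 0.21, adjusted p = 0.224) and Mirg 5.30, 4.59, 3.29 and 1.55 CPM (1.09 ± 0.41, adjusted p = 0.260), both without overlap. Endothelial and mesenchymal RNAs moved in the same direction in these sums, and epithelial RNAs in the other. Ramp2, an endothelial gene, had 9.15, 12.7, 6.88 and 4.82 CPM in the ILC2-like cells of DEX-1, DEX-2, PBS-1 and PBS-2, and Col3a1, a collagen gene, 2.98, 2.65, 1.78 and 0.963 CPM, while Sftpc had 233, 217, 267 and 273 CPM. Of 6 tested genes of a list of RNAs foreign to these cells, 6 met the unadjusted bound and 0 were called, with a median of 0.42. All 8 endothelial markers were detected, with summed levels of 54.5 and 60.1 CPM in DEX and 43.6 and 45.7 CPM in PBS, 7 of 8 mesenchymal markers with 54.1 and 58.3 against 34.1 and 32.2 CPM (Lum at 0), and all 12 epithelial markers with 323 and 297 against 415 and 359 CPM. The erythroid gene Hbb-bs was read at 130 CPM in DEX-1 and elsewhere at 3.18 to 3.85 CPM. The part of these RNAs in the member differences was not tested. The count of 0 called members depended on the litters, and members were called in some fits with a single litter left out. Such fits leave a lone litter in a group, and the share of all genes called in them is not given here. Those calls are therefore not read as results about the members. Over all alternative settings the fold ranged from 0.93 to 2.66 for Igf2 and from 0.64 to 1.33 for Plagl1. H19 turned to -0.057 without PBS-2, and Dlk1 to 0.22 without DEX-1 and 0.17 without PBS-2.

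In mast-like cells 25 members were tested, 0 were called and 0% of 11157 genes were called, while 4.92% met the unadjusted bound. H19 had 514 and 712 CPM in DEX-1 and DEX-2 and 515 and 651 CPM in PBS-1 and PBS-2 (0.07 ± 0.17, adjusted p = 0.998, edgeR), and Igf2 168, 255, 197 and 239 CPM (-0.04 ± 0.19, adjusted p = 0.998, edgeR). The litters of the treatments were interleaved for both, with DEX-2 highest. Dlk1 gave -0.31 ± 0.24 (adjusted p = 0.998, edgeR), and Meg3 was too low to be tested. The only member under the unadjusted bound was Cdkn1c, with 17.8, 25.1, 15.1 and 14.7 CPM (0.54 ± 0.20, adjusted p = 0.969). The signs of H19 and Igf2 turned when single litters were left out, H19 to -0.18 (DEX-2 left out) and -0.075 (PBS-1 left out), and Igf2 to 0.22 without DEX-1 and 0.11 without PBS-2.

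In epithelial-like cells 27 members were tested, 0 were called and 0.0573% of 10467 genes were called. At the unadjusted bound there were 5 members (3 higher and 2 lower with DEX), against 7.16% of all genes. Dlk1 had 6898 and 7027 CPM in DEX-1 and DEX-2 and 5701 and 4673 CPM in PBS-1 and PBS-2 (0.42 ± 0.10, adjusted p = 0.286, edgeR). Meg3 had 1199 and 1153 against 1000 and 894 CPM (0.31 ± 0.10, adjusted p = 0.538, edgeR). For both, the DEX litters lay above the PBS litters. The folds fell to 0.045 for Dlk1 and 0.047 for Meg3 with the ratio rule for hashtags and to 0.20 and 0.19 with MULTIseqDemux, rules that raised the epithelial-like cells of PBS-2 from 72 to 331 and 443. Cluster 16 gave 8 of 76 and 11 of 106 epithelial-like cells in the DEX litters and 10 of 87 and 13 of 72 in the PBS litters. In cluster 5 alone the folds were 0.31 ± 0.09 for Dlk1 (unadjusted p = 0.00433, adjusted p = 0.583, edgeR) and 0.20 ± 0.10 for Meg3 (unadjusted p = 0.0603, adjusted p = 0.851, edgeR). H19 had 67.03 and 55.6 against 30.1 and 50.1 CPM (0.60 ± 0.21, adjusted p = 0.569), in cells where mast proteases were read too. Igf2r and Plagl1 were lower with DEX, by -0.56 ± 0.19 (adjusted p = 0.549) and -0.57 ± 0.25 (adjusted p = 0.664) on the log2 scale, and Plagl1 was at -0.28 ± 0.31 in cluster 5 alone (unadjusted p = 0.383, adjusted p = 0.967, edgeR). Plagl1 therefore had opposite signs in epithelial-like and ILC2-like cells, and the test of that difference gave an adjusted p of 0.0711 (edgeR). Members were called with DEX-1 or PBS-1 left out, in fits that leave a lone litter in a group.

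**Figure D4:**
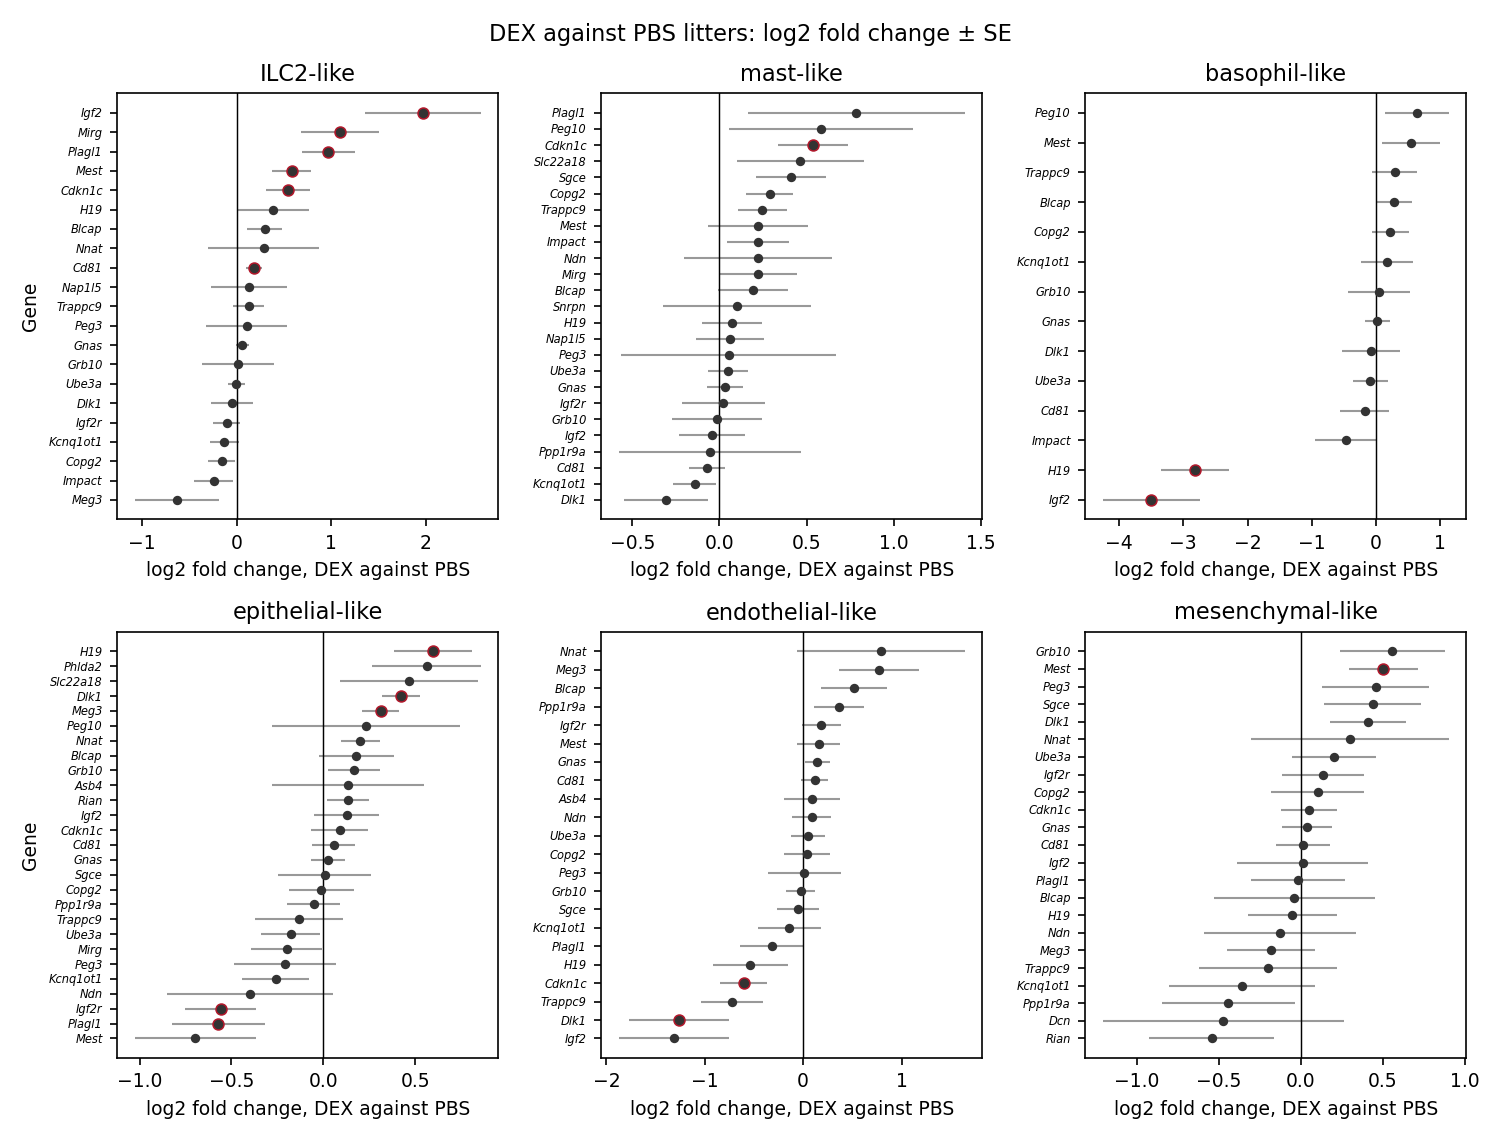
Log2 fold changes of the tested members, DEX against PBS litters, in 6 classes, with the standard error as bars. Red rings mark an unadjusted p under 0.05, no member passed the adjusted bound, and the x axes differ between panels.

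In endothelial-like cells 22 members were tested, 0 were called and 0% of 8886 genes were called. Cdkn1c and Dlk1 were the 2 members under the unadjusted bound, against 3.81% of genes. Cdkn1c had 111 and 182 CPM in DEX-1 and DEX-2 and 239 and 205 CPM in PBS-1 and PBS-2 (-0.60 ± 0.24, adjusted p = 0.998, edgeR). Cluster 11, where Cdkn1c was high, gave 1 and 2 cells in the DEX litters and 4 and 9 in PBS-1 and PBS-2. Of the 268 Cdkn1c UMIs in PBS-1, 80 and 72 came from single cells. The part of these cells in the difference was not tested. Dlk1 had 44.9, 42.6, 50.9 and 161 CPM (-1.26 ± 0.51, adjusted p = 0.998), and the difference lay in PBS-2, where Sftpc was 3981 CPM against 264 to 371 CPM in the other litters. Of the 159 Dlk1 UMIs in PBS-2, 97 and 47 came from single cells. All 12 epithelial markers were detected in endothelial-like cells, at a summed 5070 CPM in PBS-2 and 438 to 625 CPM in the others. In cluster 10 alone Dlk1 had 45.8, 43.9, 33.9 and 74.8 CPM. Without PBS-2 the Dlk1 fold was -0.22, and its sign turned to 1.12 with the cells of highest doublet score left out. Mest gave 0.16 ± 0.22 in endothelial-like cells and -0.16 without PBS-2. Members were called in this class without PBS-1, in a fit that leaves a lone litter in a group. In mesenchymal-like cells 23 members were tested, 0 were called, 0% of 7688 genes were called, and 1 member met the unadjusted bound against 4.49% of genes. It was Mest, with 274, 313, 234 and 178 CPM (0.50 ± 0.21, adjusted p = 1.00). In B-like cells 3 members were tested, 0 were called against 0.213% of 3294 genes, and 0 met the unadjusted bound against 4.22%.

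In basophil-like cells 14 members were tested, 0 were called and 0% of 7486 genes were called. H19 and Igf2 were under the unadjusted bound, against 1.55% of genes. H19 had 3.40, 11.4, 79.4 and 32.7 CPM in DEX-1, DEX-2, PBS-1 and PBS-2 (-2.82 ± 0.53, adjusted p = 1.00), from 3, 16, 93 and 24 UMIs. Of the 93 UMIs in PBS-1, found in 9 cells, 46 and 38 came from single cells. Igf2 had 2, 1, 24 and 8 UMIs (-3.50 ± 0.75, adjusted p = 1.00). Both PBS litters were above both DEX litters for these genes. With the cells that held mast proteases left out, neither H19 nor Igf2 had enough UMIs to be tested, and Cma1 in the class was at 389, 456, 178 and 1319 CPM. Members were called with DEX-1, DEX-2 or PBS-2 left out, in fits that leave a lone litter in a group.

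**Figure D5:**
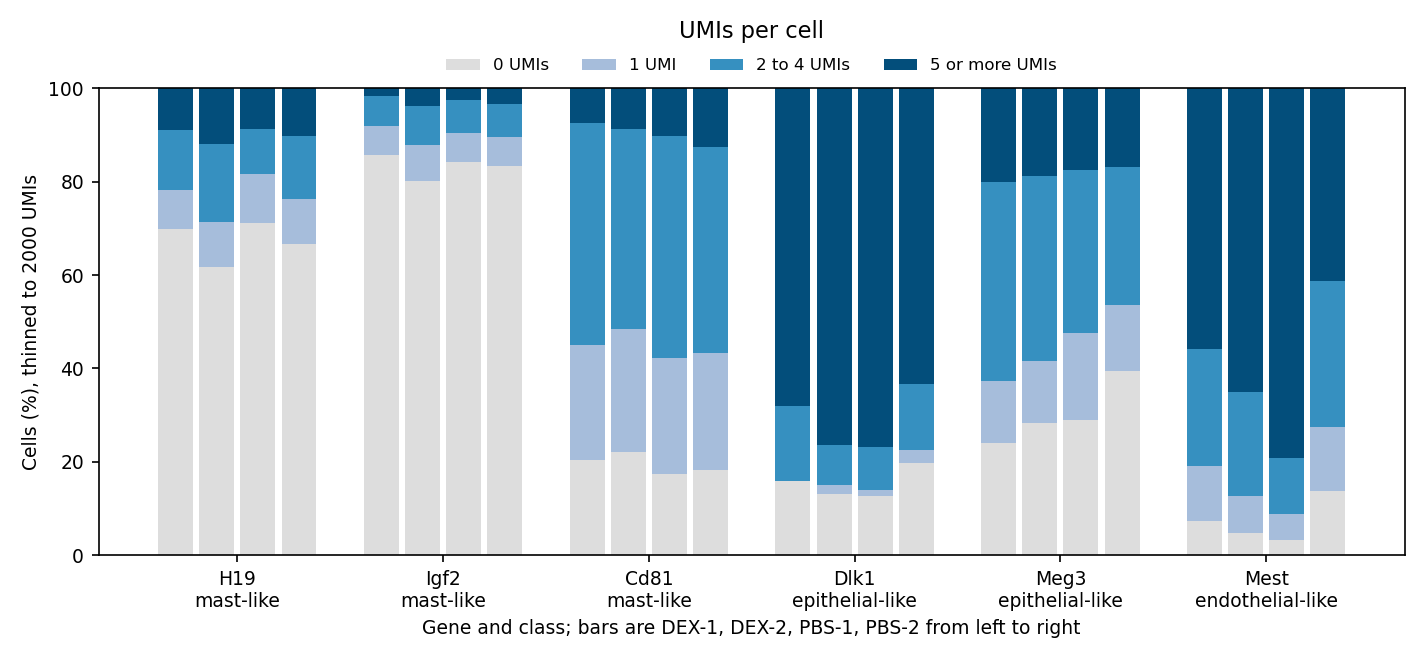
Share of cells of a class (per cent, stacked bars, 1 bar per litter in the order DEX-1, DEX-2, PBS-1, PBS-2) with 0, 1, 2 to 4 and 5 or more UMIs of a member after thinning every cell to 2000 UMIs. H19 and Igf2 in mast-like cells are mostly 0 (66.9% and 83.2% of cells over all litters), and Dlk1 in epithelial-like and Mest in endothelial-like cells mostly 5 or more (71.9% and 63.0%).

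The difference of the DEX effect between ILC2-like and mast-like cells was tested in 27 members by the class by treatment interaction in edgeR. None was called, where 0.0336% of 11900 genes were called. At the unadjusted bound there were 4, against 5.06% of genes, and the largest was Igf2, 2.04 ± 0.48 higher in ILC2-like cells (adjusted p = 0.326). Over all 21 pairs of classes, members were called only between epithelial-like and basophil-like cells, where H19 and Igf2 were 2 of 28 members tested and 0.101% of 10914 genes were called. In the other pairs with ILC2-like cells the share of all genes called was 0.224% (epithelial-like), 0% (endothelial-like), 0.152% (mesenchymal-like), 0.0589% (B-like) and 0.0375% (basophil-like), and in those with mast-like cells 0.0545%, 0.0332%, 0%, 0.00896% and 0% in the same order. Epithelial-like cells gave 0.00896% against endothelial-like, 0.0268% against mesenchymal-like and 0.0512% against B-like cells. Among endothelial-like, mesenchymal-like, B-like and basophil-like cells the share was 0.0418% (endothelial-like and basophil-like), 0.0304% (mesenchymal-like and B-like) or 0%. The H19 and Igf2 calls were computed with the few basophil-like UMIs described above.

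Related genes gave as few calls. Of the 13 genes of the Igf axis (ligands, receptors and binding proteins) 5 were tested in each of ILC2-like and mast-like cells and 0 were called, with medians of 0.45 and -0.05 on the log2 scale, where the medians of all genes were 0.00 and 0.01. Of 10 genes of the fetal program, 8 were tested in each and 0 called (medians 0.21 and 0.15). Of 14 genes that maintain imprints, such as DNA methyltransferases, 12 were tested in each and 0 called (medians -0.08 and 0.05). Of 34 further imprinted genes in the matrix, 18 and 20 were tested and 0 called (medians -0.05 and -0.18). Of 9 mast maturation genes, 8 were in the matrix, 4 were tested in ILC2-like and 7 in mast-like cells, and 0 were called. Of 9 cell cycle genes all were tested in each and 0 called. Targets of the glucocorticoid receptor did change in ILC2-like cells. Of 8 tested, 3 rose and 1 fell, where 2.27% of all genes were called in either direction. Errfi1, a feedback inhibitor of EGF receptor signals, rose by 0.73 ± 0.12 (adjusted p = 0.00508, edgeR) and Sgk1, a serum and glucocorticoid regulated kinase, by 0.52 (adjusted p = 0.0392, edgeR). Zbtb16, a transcription factor of innate lymphocytes, rose by 0.45 (adjusted p = 0.0402, edgeR), and Fkbp5, a chaperone of the receptor, fell by 0.51 (adjusted p = 0.0357, edgeR). In mast-like cells 0 of these 8 were called, where 0% of the 11157 genes tested were called. The difference between the classes is not given for these targets, so the counts show none.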

How the data were processed

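Fetal lung cells of 4 litters were measured as 1 hashtagged 10x 5′ library. The deposited file holds raw UMI counts per gene and barcode, made by the authors with Cell Ranger 7 on mm10 per the labels. Whether introns were counted, and with which annotation, is not given in the sources used here. It had 32285 genes, 4 hashtags and 10648 barcodes. Cells with at least 200 genes and at most 5% mitochondrial UMIs were kept, and litters were assigned by HTODemux (Seurat 5.3.0, quantile 0.99, run on all barcodes). This gave 7268 singlets, 736 doublets between litters and 2405 cells without a tag, and the last 2 groups were not used. Doublets within a litter, 3.38% by expectation, were kept, since the threshold Scrublet set for itself marked 2 cells. Clusters came from scanpy 1.11.5 (2000 variable genes, 20 components, 15 neighbours, Leiden resolution 0.5) with members and the lists of related genes left out. They were named from marker lists, whose genes were not left out as such. A cluster led by the mast list with the basophil list close behind was put with the mast-like cells. The names are rebuilt and may differ from the study's.

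UMI counts were summed per litter and class. The treatment contrast used edgeR 4.0.16 quasi-likelihood tests (TMM, filterByExpr, two-sided, Benjamini-Hochberg adjustment over all genes), in R 4.3.3, with DESeq2 1.42.0 as an alternative, after the scripts were tested on simulated data. Levels are mean CPM ± SD over 4 litters, and class against class was described and not tested, since the classes came from the same cells. Total counts per litter were 18665955 to 23660294 UMIs. All litters came from 1 library and 1 matrix, so no barcode was shared between libraries. Intervals and floors cover counting error only. DEX folds were to be named for H19, Igf2, Dlk1, Meg3 and any called member. The members, lists and tests were chosen with earlier results of these data known. The comparison in basophil-like cells, the levels without mast proteases and the other pairs of classes were added after seeing the data. Gene positions are from GENCODE M21 (GRCm38) and microRNAs from RefSeq.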

Additional observations from a re-analysis of the deposited data

Results flagged for a closer look

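The DEX effect on H19 differed between epithelial-like and basophil-like cells by 3.41 ± 0.57 on the log2 scale (adjusted p = 0.0115, edgeR interaction term), and that on Igf2 by 3.63 ± 0.69 (adjusted p = 0.0331). In both cases the value was lower with DEX in basophil-like cells, and in epithelial-like cells H19 was higher with DEX. A test of the difference itself singled these out among 21 pairs of classes, with 11 to 32 members tested per pair. In the basophil-like cells of PBS-1, 46 and 38 of 93 H19 UMIs were in single cells. With cells holding mast proteases left out, neither gene had enough UMIs in basophil-like cells to be tested.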

How the results depend on the processing

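The number of called members was 0 in each class and stayed 0 with DESeq2, other size factors, other hashtag rules, another mitochondrial limit, another clustering and with high doublet scores left out. Without the filter on low counts it became 3 in ILC2-like, 1 in mast-like, 1 in epithelial-like, 2 in endothelial-like and 2 in basophil-like cells and 1 for the difference between ILC2-like and mast-like cells. With single litters left out, members were called in some fits of ILC2-like, mast-like, epithelial-like, endothelial-like, mesenchymal-like and basophil-like cells and for the difference. The shares of all genes called without the filter or with a litter left out are not given here. These calls are therefore not read as particular to the members. A lone litter was then assumed to vary like the other group.

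Replicate numbers were shared by the labels without a stated pairing, and same-numbered litters correlated at 0.0782 in ILC2-like and 0.0598 in mast-like cells after removal of group means. With the replicate number as a block 3 members were called in ILC2-like cells, Igf2 (adjusted p = 0.00241), Plagl1 (0.00140) and Cdkn1c (0.00384, edgeR), and no member was called under it in another class. In basophil-like cells the correlation was -0.265, and the crossed pairing as a block called 2 members. The share of all genes called under either block is not given here, so these calls are not read as particular to the members.

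Folds near 0 changed sign. In ILC2-like cells H19 went to -0.044 with the ratio rule for hashtags and -0.065 with mast proteases left out, and ranged from -0.057 to 0.88 with single litters left out. Dlk1 there went to 0.072 with MULTIseqDemux, 0.049 at Leiden resolution 1 and 0.019 with mast proteases left out, and ranged from -0.31 to 0.22 with single litters left out. In mast-like cells H19 went to -0.047 with MULTIseqDemux and -0.0091 with the ratio rule, and ranged from -0.18 to 0.29 with single litters left out. Igf2 went to 0.054 at a mitochondrial limit of 10%, 0.020 with high doublet scores left out and 0.030 at Leiden resolution 1, and ranged from -0.38 to 0.22. Dlk1 went to 0.63 with MULTIseqDemux and 0.55 with the ratio rule. In endothelial-like cells Mest ranged from -0.16 to 0.56 with single litters left out, and Dlk1 went to 1.12 with high doublet scores left out. The cause of these changes was not tested.

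Over all genes in ILC2-like cells edgeR called 241 and DESeq2 113. In mast-like cells the counts were 0 and 13, in epithelial-like cells 6 and 4, in endothelial-like cells 0 and 1 and in B-like cells 7 and 4. The number of members highest in a structural class was 31, and 26 with cells thinned to 2000 UMIs. Depth limits the low members, since 3 UMIs in a litter were worth 14.7 CPM or more in B-like cells.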

Other observations

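Members were also read in the 5 clusters that could not be named, 976 cells in all. Cluster 13 (360 cells, median 33400.5 UMIs) had leading genes of pericytes, Higd1b and Postn among them, beside markers of endothelial and epithelial cells. It held 2785 ± 306 CPM of Dlk1, 1518 ± 197 CPM of Mest and 516 ± 40.1 CPM of Meg3 (SD, n = 4 litters). Its Cdkn1c level was 301.4 CPM, its Nnat level 299 CPM, its Grb10 level 166 CPM and its Rian level 116 CPM. Cluster 14 (109 cells), led by Sprr1a, Msln, Pdpn and Aqp5, genes of flat epithelium, held 430 ± 125 CPM of Nnat, 270 CPM of Cdkn1c and 252 CPM of Meg3.

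Cluster 15 (224 cells), led by Elane, Prtn3 and Klf1, genes of young myeloid and red blood cells, held 66.2 ± 4.27 CPM of Grb10, where mast-like cells had 20.3 ± 5.31 CPM, and its H19 was at 0.534 and 43.3 CPM in the DEX litters and 1.51 and 1.13 CPM in the PBS litters. Cluster 7 (255 cells), led by the neutrophil genes S100a8 and S100a9, held 37.0 ± 25.0 CPM of Mest, and its H19 was at 4.28 and 9.73 CPM in the DEX litters and 38.1 and 4.05 CPM in the PBS litters. Cluster 17 held 28 cells with a median of 2417 UMIs. It had no UMI of H19, Igf2 or Grb10, 9 UMIs of Mest and 34 of Kcnq1ot1, which came to 472 ± 180 CPM.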
